A study of Mus musculus with 6 samples.

Results

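Genes with more than 1 changed circRNA were examined in neutrophils from the bone marrow of diabetic mice. The members were the exonic circRNAs (circles built from exons) in the study's lists of circRNAs changed more than 1.5-fold, where the host gene had at least 2 exonic entries and was not among 12 genes left out by name. The rule gave 26 circRNAs on 13 genes, 2 on each gene, out of 14236 circRNA probes on the array and 453 listed circRNAs. The members were thus chosen by the listed db to non-db fold in these same pools, so their group differences are given as a description, without a test. The mice were males of the BKS.Cg-Dock7m +/+ Leprdb/J strain at 8 weeks of age. Diabetic (db) animals were Lepr db/db, with both copies of the leptin receptor gene mutated, and non-diabetic (non-db) animals were Lepr db/+, with 1 mutated copy. Neutrophils were taken with anti-Ly-6G beads from marrow pooled from 3 mice, and 3 non-db pools (numbered 1 to 3) and 3 db pools (4 to 6) were each hybridized to 1 array after RNase R treatment. In such bulk samples, a change in the cells collected and a change in RNA per cell cannot be told apart, and the neutrophil identity could not be checked, since none of 13 neutrophil marker genes looked for was among the 44 linear mRNA control probes of the array that could be named (of 50).

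A circRNA forms by back-splicing, when a downstream splice donor joins an upstream acceptor of the same pre-mRNA. The closed ring has no free ends, so it resists exonucleases such as RNase R and outlives most linear transcripts. A gene can give rise to several circRNAs that share exons and a promoter but have different back-splice junctions. The groups described here are circRNAs listed on the same gene, whose junctions were not compared. Neutrophils are short-lived cells that leave the marrow to kill microbes, and their arrival and removal shape the inflammatory phase of wound repair.

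The deposited log2 signal of all 6 pools was used. Detection flags came from pools 2 to 6, because the scanner file of pool 1 held 2422 of 15712 spots. Between 89.1% and 91.4% of the probes were well above background on 4 of these arrays and 80.7% in pool 5. A probe was kept if it passed on 3 or more of the 5, which left 12722. Of the members, 25 passed, each of them on all 5 arrays. The exception was mmu_circRNA_45429 of Xiap, which was well above background in pools 3 and 4 and not in pools 2, 5 and 6. On the arrays with complete files, probes spotted 10 times had a median log2 SD between 0.055 (pool 5) and 0.0914 (pool 3) over their repeat spots. Across all probes kept, 205 (1.61%) had an unadjusted limma p under 0.05 and 0 had an adjusted p under 0.05 (Benjamini-Hochberg; smallest adjusted p = 0.951 in limma), and the methods' t-test (unpaired) gave 274 and 0.

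The circRNAs of a gene can be transcribed from 1 promoter. Bases before the RefSeq start are shown for Crebrf, which had the most listed circRNAs of all types, and for Ipo11, whose circRNAs were higher in db. Both are from build GRCm38.p6 and read 5′ to 3′ on the gene's strand. The Ipo11 stretch is the 250 bases before the start site, and the Crebrf stretch stops after 194 bases, where the outermost transcript of the gene begins. Capitals mark matches on either strand to a motif. The motifs searched were the TATA box, written TATAAA, the CCAAT box, written CCAAT, the GC box, written GGGCGG, the core bound by the myeloid factor PU.1, written GAGGAA, and the site of the myeloid C/EBP family, written TTGCNNAA.

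Crebrf (chr17:26715400-26715593, plus strand): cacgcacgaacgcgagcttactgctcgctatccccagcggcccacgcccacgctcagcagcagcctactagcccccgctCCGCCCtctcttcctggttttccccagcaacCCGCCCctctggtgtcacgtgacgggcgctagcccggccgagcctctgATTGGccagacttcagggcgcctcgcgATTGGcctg

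Ipo11 (chr13:106936959-106937208, minus strand): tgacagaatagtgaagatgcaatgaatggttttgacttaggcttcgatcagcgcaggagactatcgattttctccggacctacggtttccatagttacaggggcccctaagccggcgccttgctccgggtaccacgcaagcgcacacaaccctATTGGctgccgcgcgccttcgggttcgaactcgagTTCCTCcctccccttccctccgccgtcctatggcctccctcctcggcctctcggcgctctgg

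The Crebrf stretch held 2 GC boxes and 2 CCAAT boxes, and that of Ipo11 held 1 CCAAT box and 1 PU.1 core. RefSeq windows of 250 bases were at hand for 10 of the 13 host genes, 3 for Xiap and 1 for each of the others. Hits are counted per gene and the shares per window, so these units differ. The CCAAT box was found in those of 6 genes and in 33.8% of all 32851 windows. The GC box was found in 7 genes and 32.7% of all windows, the PU.1 core in 4 genes and 23.3%, the TATA box in 1 gene and 12.4%, and the C/EBP site in 0 genes and 9.56%. G and C made up 68.0% of the Crebrf stretch and 59.2% of that of Ipo11, against a median of 52.4% over all windows.

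Both listed circRNAs lay on the same side in each of the 13 genes. Unlisted probes carry no gene name here, so circRNAs of these genes that did not pass 1.5-fold could not be examined. The count therefore holds only for circRNAs that were both listed. For 11 genes (22 circRNAs) the db pools were lower, and for 2 genes, Ipo11 and Rnf138 (4 circRNAs), they were higher. In the lists, 191 of 342 exonic circRNAs (55.8%) were lower in db. Counting the 3 genes that were left out by name but also had 2 listed exonic circRNAs (Chd2, Ltn1 and Trim37), 14 of 16 genes were listed in 1 direction, and Ltn1 and Trim37 had a circRNA in each list. The falls among the members ran from 1.5-fold to 2.21-fold, with a median log2 difference of -0.73, beside -0.69 over all 247 circRNAs listed as lower and 0.01 over all probes kept. The rises ran from 1.59-fold to 2.17-fold, with a median of 0.999 beside 0.80 over the 206 listed as higher. Among all probes kept, 1.93% were more than 1.5-fold lower and 1.62% more than 1.5-fold higher. Just inside the threshold of 0.585 log2 units was mmu_circRNA_29992 of Bach1, at -0.585, and the nearest probes outside it stood at -0.5844 and 0.5848. The groups did not overlap for 2 of the 22 lower members (mmu_circRNA_29990 of Bach1 and mmu_circRNA_44052 of Ddx6), where 2.68% of all probes kept had every db pool below every non-db pool, and for 1 of the 4 higher members (mmu_circRNA_018127 of Ipo11), where 3.96% had every db pool above. In these 3, the nearest non-db and db pools stood at 8.5123 and 8.4904, 6.9345 and 6.9187, and 7.3337 and 7.3611. Each gap was narrower than the median repeat-spot SD of every array with a complete file.

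**Figure D1:**
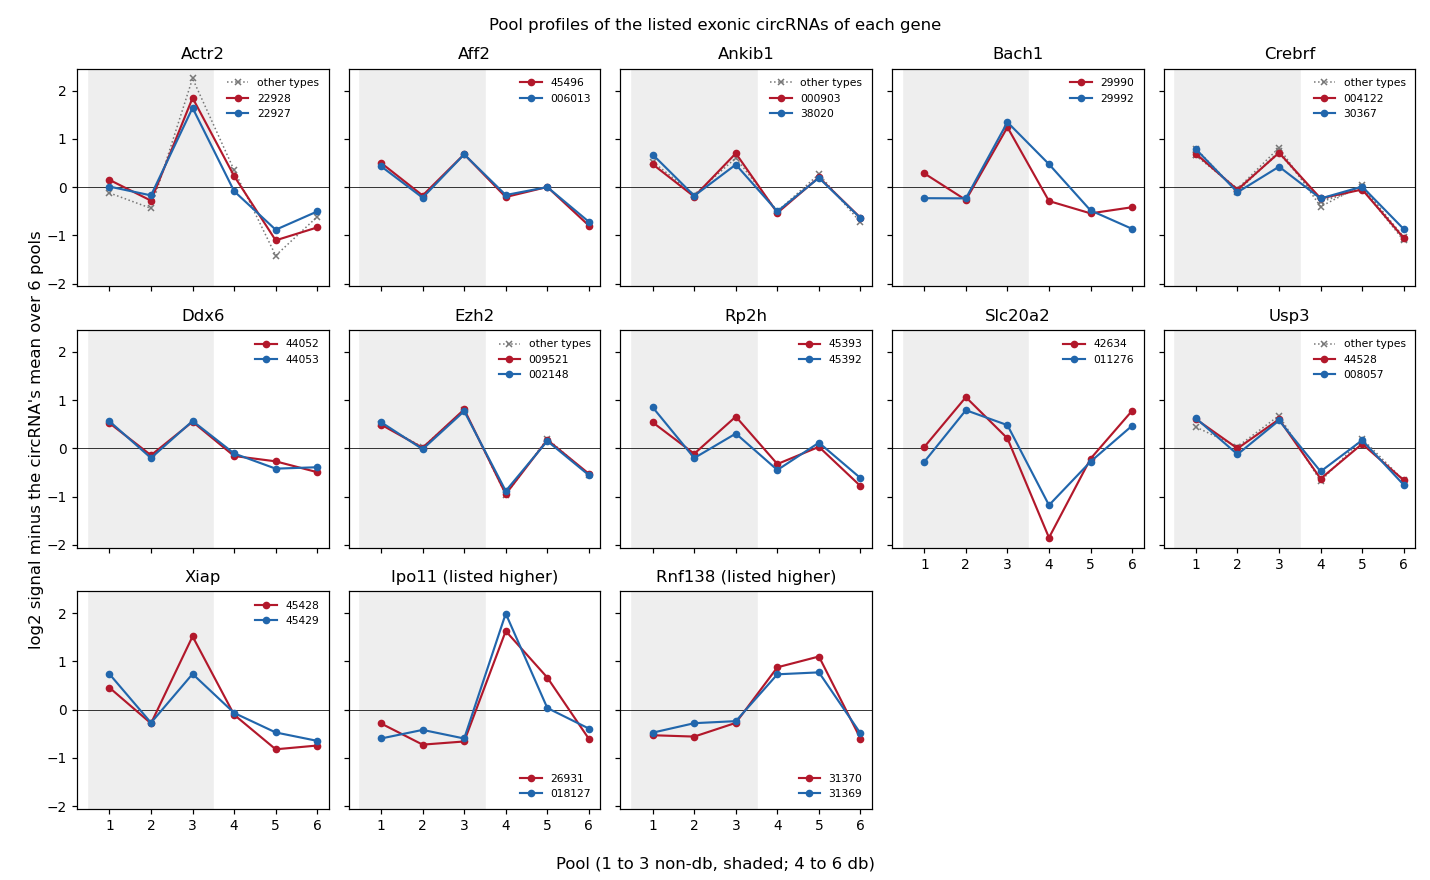
The log2 signal of each listed exonic circRNA, minus that circRNA's own mean over the 6 pools, is plotted against the pool number, with 1 panel for each gene and 1 coloured line for each of its circRNAs. Dotted grey lines are listed circRNAs of other types on the same gene, and shading marks the non-db pools. The lines of Aff2 and Ezh2 nearly coincide, while those of Bach1 part in pool 4.

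Ubiquitin attaches to proteins through E3 ligases and is removed by deubiquitinases, and 4 of the host genes act in this system. Usp3 encodes a deubiquitinase that acts on histones. Its mmu_circRNA_44528 had log2 signals of 8.29, 7.68 and 8.29 in non-db pools 1, 2 and 3 and of 7.05, 7.78 and 7.02 in db pools 4, 5 and 6. mmu_circRNA_008057 measured 8.68, 7.93 and 8.64 in the non-db pools and 7.58, 8.23 and 7.30 in the db pools. The 6 pools stood in the same order for both, with pool 5 above non-db pool 2, so that the groups overlapped. The group means were 7.28 ± 0.43 in db against 8.09 ± 0.35 in non-db for the first and 7.70 ± 0.47 against 8.42 ± 0.42 for the second (SD, n = 3 each), which gave log2 differences of -0.80 and -0.72.

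Ankib1 encodes an E3 ligase of the RING-between-RING class. In pools 1 to 6, mmu_circRNA_000903 read 7.55, 6.88, 7.77, 6.54, 7.28 and 6.44, and mmu_circRNA_38020 read 7.06, 6.20, 6.85, 5.88, 6.57 and 5.74. Within db, pool 5 was the highest and pool 6 the lowest for both, and within non-db they parted only over whether pool 1 or pool 3 was highest. The differences of -0.65 and -0.64 were nearly equal, with SDs of 0.45 to 0.47 within the groups (n = 3 each).

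Xiap encodes the X-linked inhibitor of apoptosis, which blocks caspases and carries an E3 ligase domain. mmu_circRNA_45428 stood at 6.67, 5.93 and 7.73 in the non-db pools and at 6.10, 5.39 and 5.47 in the db pools. Its db mean of 5.65 ± 0.39 lay 1.12 log2 units under the non-db mean of 6.77 ± 0.91 (SD, n = 3 each). The other circRNA, mmu_circRNA_45429, read 5.85, 4.84, 5.85, 5.05, 4.64 and 4.47 in pools 1 to 6, a log2 difference of -0.80, but it was not well above background in 3 of the 5 arrays with flags. Pool 2 was lowest among the non-db pools and pool 4 highest among the db pools for both.

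Rnf138 encodes an E3 ligase that takes part in the repair of DNA breaks, and its circRNAs were listed as higher. The non-db pools gave 5.43, 5.41 and 5.69 for mmu_circRNA_31370 and the db pools 6.84, 7.07 and 5.37. For mmu_circRNA_31369 the same pools gave 6.18, 6.38 and 6.42, then 7.39, 7.43 and 6.17. In both circRNAs, db pools 4 and 5 exceeded all non-db pools and pool 6 did not, so the rise was carried by 2 of the 3 db pools. Pool 6 lay just under the lowest non-db pool, at 5.3658 against 5.4061 and at 6.1679 against 6.1829. Both gaps were narrower than the median repeat-spot SD of every array with a complete file. The differences were 0.91 and 0.67, with SDs of 0.92 and 0.72 in db and 0.16 and 0.13 in non-db (n = 3 each).

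Chromatin and transcription regulators formed the next group. Ezh2 is the methyltransferase of Polycomb repressive complex 2, which places the repressive mark on histone H3 lysine 27. mmu_circRNA_009521 had log2 signals of 9.13, 8.65 and 9.45 in non-db and of 7.69, 8.82 and 8.12 in db pools. mmu_circRNA_002148 had 9.50, 8.95 and 9.73 in non-db and 8.08, 9.11 and 8.41 in db pools. All 6 pools fell in the same order, with pool 4 lowest, and pool 5 above non-db pool 2. The log2 differences were -0.87 and -0.86, from db means of 8.21 ± 0.57 and 8.53 ± 0.53 and non-db means of 9.08 ± 0.40 and 9.39 ± 0.41 (SD, n = 3 each).

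Crebrf encodes a regulator of CREB3 proteins. mmu_circRNA_004122 measured 9.40, 8.66 and 9.42 in the non-db pools and 8.48, 8.66 and 7.66 in the db pools. mmu_circRNA_30367 measured 7.47, 6.58 and 7.11, then 6.45, 6.69 and 5.81. Pool 6 was the lowest of all for both, and pool 2 stood level with pool 5 or under it. The differences of -0.90 and -0.73 were set against within-group SDs of 0.44 to 0.54 (n = 3 each).

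Aff2 belongs to the AF4/FMR2 family of nuclear proteins linked to transcription elongation. Its circRNAs had the most alike profiles among the 13 genes. In pools 1 to 6, mmu_circRNA_45496 read 7.02, 6.34, 7.20, 6.31, 6.52 and 5.72, and mmu_circRNA_006013 read 7.10, 6.45, 7.35, 6.51, 6.67 and 5.95. In group-centred values no pool separated them by more than 0.0414 log2 units. The group differences were -0.67 and -0.59.

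Bach1 encodes a heme-responsive transcriptional repressor, and its circRNAs were the least alike. mmu_circRNA_29990 stood at 9.06, 8.51 and 10.02 in non-db and at 8.49, 8.24 and 8.36 in db pools. mmu_circRNA_29992 stood at 8.04, 8.04 and 9.61 in non-db and at 8.74, 7.79 and 7.40 in db pools. Pool 3 was the highest for both, but pool 4 lay below all non-db pools for the first and above pools 1 and 2 for the second. The differences were -0.84 and -0.585, and without pool 3 they were -0.43 and -0.06.

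The remaining genes act in RNA handling, the cytoskeleton and transport. Ddx6 is an RNA helicase of processing bodies, where mRNAs are stored and decapped. Its mmu_circRNA_44052 read 7.60, 6.93, 7.63, 6.92, 6.81 and 6.58 in pools 1 to 6, and mmu_circRNA_44053 read 7.01, 6.24, 7.01, 6.34, 6.02 and 6.05. The db pools lay close together, with an SD of 0.17 for each, against 0.39 and 0.44 in non-db (n = 3 each). Both differences were -0.62.

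Actr2 encodes a core subunit of the Arp2/3 complex, which nucleates branched actin and drives the migration of leukocytes. It held the largest fall among the members. mmu_circRNA_22928 had log2 signals of 9.56, 9.12 and 11.25 in non-db and of 9.64, 8.30 and 8.57 in db pools. mmu_circRNA_22927 had 8.14, 7.96 and 9.78 in non-db and 8.05, 7.25 and 7.63 in db pools. Pool 3 stood far above the other 5 pools in both, and pool 4 lay within the range of the non-db pools. Their differences of -1.14 and -0.98 became -0.50 and -0.41 without pool 3.

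Rp2h, now named Rp2, encodes a GTPase-activating protein for ARL3 that serves traffic to the cilium. mmu_circRNA_45393 measured 7.44, 6.79, 7.56, 6.58, 6.94 and 6.12 in pools 1 to 6, and mmu_circRNA_45392 measured 7.13, 6.08, 6.59, 5.83, 6.40 and 5.66. Pool 5 was the highest and pool 6 the lowest of the db pools in both, whereas pool 3 ranked first in non-db for one and pool 1 for the other. The differences were -0.72 and -0.63.

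Slc20a2 encodes a sodium-dependent phosphate transporter, and its profile stood apart from those of the other lower genes. The non-db pools measured 9.85, 10.88 and 10.03 for mmu_circRNA_42634 and the db pools 7.97, 9.61 and 10.60. For mmu_circRNA_011276 they measured 6.84, 7.91 and 7.60, then 5.94, 6.84 and 7.59. Pool 4 was the lowest and pool 2 the highest for both, and pool 6 lay above pool 1. Without pool 4, the differences of -0.86 and -0.66 became -0.15 and -0.23.

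Ipo11 encodes a nuclear import receptor. mmu_circRNA_26931 had log2 signals of 8.95, 8.51 and 8.57 in non-db and of 10.86, 9.90 and 8.63 in db pools. mmu_circRNA_018127 had 7.16, 7.33 and 7.16 in non-db and 9.74, 7.79 and 7.36 in db pools. Pool 4 was the highest for both, and pool 6 lay within the range of the non-db pools for the first and just above it for the second. The differences were 1.12 and 1.08, with SDs of 1.12 and 1.27 in db and 0.24 and 0.10 in non-db (n = 3 each). Without pool 4 they were 0.59 and 0.36.

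To ask whether the circRNAs of a gene moved together beyond the group difference that chose them, each log2 value was taken minus the mean of its own group, and the distance between a pair of circRNAs was the root-mean-square difference of these values over the 6 pools. The median distance within a gene was 0.148 log2 units (13 pairs, 0.0305 to 0.402). Between members of different genes listed in the same direction it was 0.398 (224 pairs, 0.0538 to 1.42). Of these cross-gene pairs, 20 (8.93%) were nearer than the median within-gene pair. These pairs share arrays, pools and members, so the values are a description. The most alike circRNAs were those of Aff2 (0.0305) and Ezh2 (0.0411), followed by Ddx6 (0.0828) and Usp3 (0.0842), and the least alike those of Bach1 (0.402), Ipo11 (0.357), Slc20a2 (0.350) and Xiap (0.332).

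**Figure D2:**
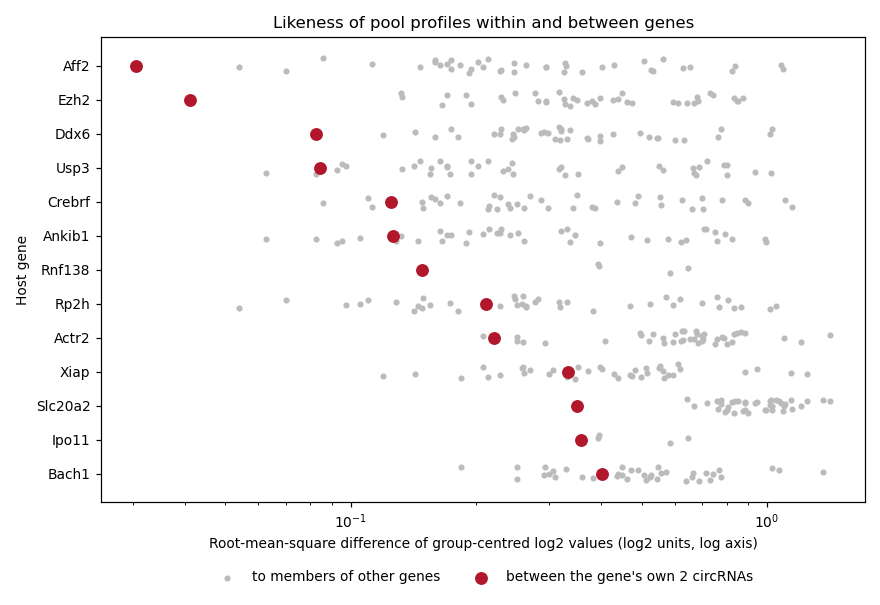
Each row is a host gene, and the x axis is the root-mean-square difference of group-centred log2 values on a log axis. Large red points give the distance between the gene's own circRNAs, and small grey points (spread vertically for visibility) give the distances from these to members of other genes listed in the same direction. The red point is left of every grey point for Aff2, Ezh2, Ddx6, Rnf138, Slc20a2 and Ipo11. Ipo11 and Rnf138 have grey points to each other only, since no other gene was listed as higher.

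For 14 of the 26 members, the nearest of the other 25 members was the circRNA of the same gene. In 6 genes (Aff2, Ddx6, Ezh2, Ipo11, Rnf138 and Slc20a2) this held in both directions. For Usp3 and Ankib1, the nearest members were those of the other of these 2 genes, and mmu_circRNA_45393 of Rp2h was nearest to mmu_circRNA_45496 of Aff2, at 0.0538, the closest pair across genes. When all probes kept were ranked by distance to a member, the circRNA of the same gene came at a median rank of 13.5 among 12722, or 0.106% of them. It was the nearest of all for 3 members, both of Aff2 and mmu_circRNA_31370 of Rnf138. It was among the nearest 10 for 10 members, the nearest 25 for 16 and the nearest 100 for 19. The highest ranks were 2338 for mmu_circRNA_29990 of Bach1 and 1623 for the dim mmu_circRNA_45429 of Xiap. Among the 6 genes nearest in both directions, the ranks were 168 and 146 for Ipo11 and 78 and 267 for Slc20a2. They ran from 1 to 11 for Aff2, Ddx6, Ezh2 and Rnf138. The order of the 3 non-db pools was the same for both circRNAs of 8 genes, that of the 3 db pools for 10, and both orders for 5 of 13 genes (38.5%), beside 13.4% of the cross-gene pairs.

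Several genes also shared a profile with each other, a pattern noticed after the values were seen. In Aff2, Ankib1, Crebrf, Ezh2, Rp2h and Usp3, all 12 circRNAs had pool 2 as the lowest of the non-db pools and pool 5 as the highest of the db pools. These 6 genes were picked by this order, so the count within them is largely fixed by the pick. Of the 22 lower members, 12 had this combination, beside 12% of all probes kept and 21.9% of the 247 circRNAs listed as lower. The median distance across these genes was 0.179 (60 pairs), beside 0.105 within them. The short distance across genes partly follows from the pick, since they share a pool order. Over all 22 lower members, pool 2 was the lowest non-db pool for 20, against 39.3% of the circRNAs listed as lower. Pool 4 was the lowest db pool for only 4 of the 22, those of Ezh2 and Slc20a2, whereas it was so for 74.9% of the circRNAs listed as lower. Pool 6 was the lowest db pool for 13 of the 22, against 13.4% of that list. The members are part of the list, and no test was made of these shares. Pool 5 had the lowest share of detected probes (80.7%), and the part of detection in these profiles was not tested.

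Listed circRNAs of other types on the same genes were not used to pick members. They come from the same lists, past 1.5-fold in the same pools, so their group differences are no independent support. Unlisted circRNAs of these genes could not be looked for. The listed ones of other types numbered 7, on 5 of the genes, all listed as lower. Each was set against both exonic circRNAs of its gene, and the nearer is given first. For Ezh2, mmu_circRNA_19416, which overlaps the gene in the sense direction, read 9.37, 8.89, 9.66, 7.91, 9.07 and 8.32 in pools 1 to 6. It lay 0.0169 log2 units from mmu_circRNA_009521, which ranked first among the 12722 probes compared, and 0.0445 from mmu_circRNA_002148, which ranked 2nd. The intronic mmu_circRNA_19183 and mmu_circRNA_30362 of Crebrf also had mmu_circRNA_004122 as their nearest probe, at 0.032 and 0.0511, and for the intronic mmu_circRNA_19182 it ranked 3rd (0.0845) behind the other 2 intronic circRNAs of the gene. The other exonic circRNA of Crebrf, mmu_circRNA_30367, lay at 0.121 to 0.167 from these 3 and ranked 10th to 19th. Likewise, mmu_circRNA_22928 was the nearest probe to mmu_circRNA_19003 of Actr2 (0.266), and mmu_circRNA_22927 ranked 3rd (0.391). For mmu_circRNA_19353 of Ankib1, the exonic circRNAs ranked 3rd (0.0674) and 6th (0.0947), and for mmu_circRNA_19525 of Usp3 they ranked 8th (0.0882) and 53rd (0.139). Probe sequences and back-splice positions were not analysed here. Probes of 1 gene may bind the same RNA, and this cannot be told apart from distinct circRNAs that vary together.

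Differences were also taken within each scan session. Pools 1 and 4 were scanned in 1 session and pools 2, 3, 5 and 6 in another. In the first, pool 4 lay below pool 1 for 20 of the 22 lower members, with a median difference of -0.88, and in the second, the mean of pools 5 and 6 lay below that of pools 2 and 3 for all 22, with a median of -0.59. The exceptions in the first session were mmu_circRNA_22928 of Actr2 (0.08) and mmu_circRNA_29992 of Bach1 (0.70). All 4 higher members were higher in both sessions, with medians of 1.66 and 0.53. The group difference that chose the members is a weighted mean of both session differences, so these directions are largely fixed by the rule and are no independent support. Over all 247 circRNAs listed as lower, 97.2% were lower in the first session and 98.4% in the second, and over all 206 listed as higher, 98.5% and 94.7% were higher.

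**Figure D3:**
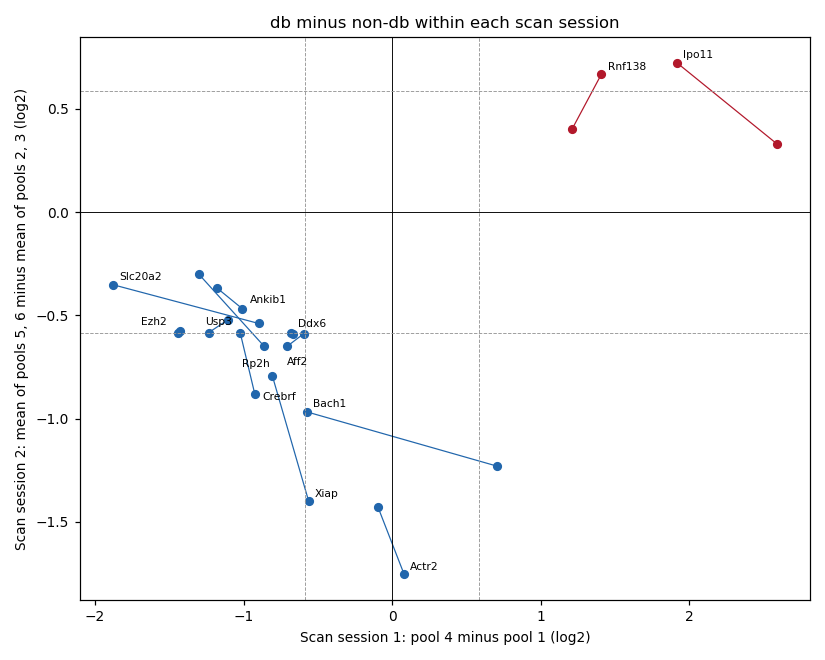
The x axis gives pool 4 minus pool 1 and the y axis the mean of pools 5 and 6 minus the mean of pools 2 and 3, both in log2 units, for each member, with the circRNAs of a gene joined by a line. Blue marks circRNAs listed as lower, red those listed as higher, and dashed lines 1.5-fold. All members lie on the listed side in the second session, and only 1 circRNA each of Actr2 and Bach1 lies on the other side in the first.

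Leaving out 1 pool at a time kept the direction of every member, but not its size. The remaining pools are among those that chose the members, so the kept direction is largely fixed by the rule. The counts below were not taken over all listed circRNAs. The members past 1.5-fold numbered 14 of 26 with pool 3 left out and 15 with pool 6 left out. They numbered 18, 24, 19 and 23 with pools 1, 2, 4 and 5 left out in turn. Of the lower members, 6 stayed past it whichever pool was left out, those of Ezh2 and Xiap, mmu_circRNA_004122 of Crebrf and mmu_circRNA_44528 of Usp3. Of the higher members, mmu_circRNA_26931 of Ipo11 and mmu_circRNA_31370 of Rnf138 did so. The Xiap pair includes the dim mmu_circRNA_45429, which did not pass the detection filter. For 11 of the 13 genes, all but Ankib1 and Rp2h, the difference of both circRNAs was smallest without the same pool.

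**Figure D4:**
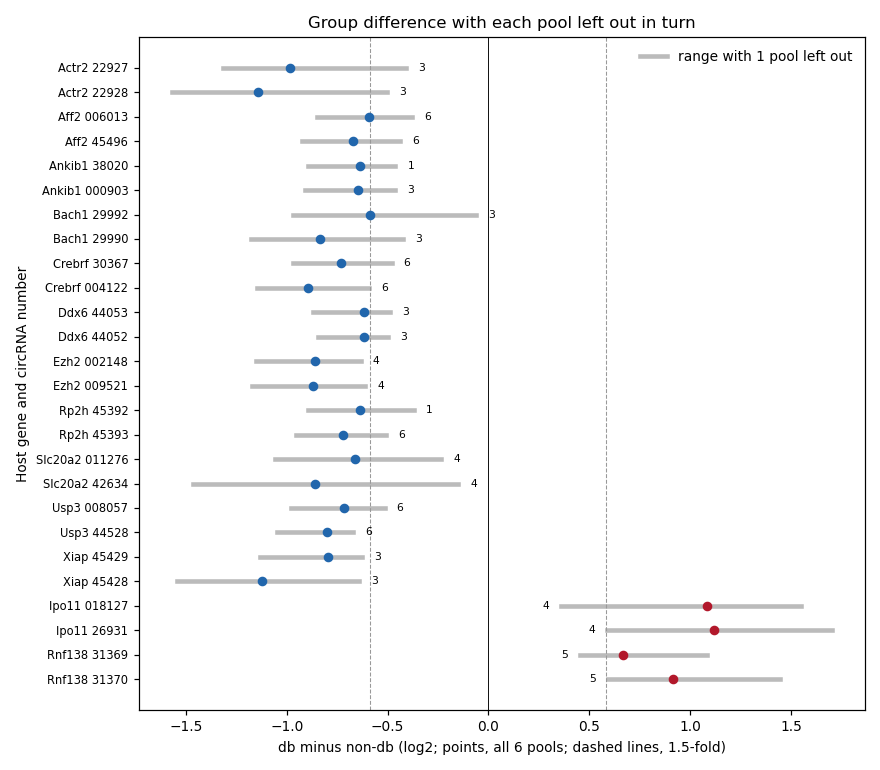
Points give the db minus non-db log2 difference of each member over all 6 pools, blue where listed as lower and red where listed as higher. Grey bars span the values with 1 pool left out in turn, the number beside a bar is the pool whose absence gave the smallest difference, and dashed lines mark 1.5-fold. No bar crosses 0.

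Relatives of these genes were also looked for among the listed hosts. None of 8 other Arp2/3 subunits, 7 inhibitors of apoptosis, 3 AF4/FMR2 genes, 5 BACH partners and relatives, 11 decapping factors and their aliases and 5 CREB3 genes was a host in the lists. Jarid2, an accessory subunit of Polycomb repressive complex 2, was the only host among 8 relatives of Ezh2, and Tnpo1, an import receptor, the only one among 10 relatives of Ipo11. Both were listed as lower. An unlisted relative may still have been measured, since unlisted probes carry no gene name here. The number of probes for these relatives is therefore not known. Over all probes kept, 1.62% were more than 1.5-fold higher and 1.93% more than 1.5-fold lower, so the counts of relatives are not read as low. The 26 members lay on 10 chromosomes. Chromosome X held 3 of the 13 genes (Aff2, Rp2h and Xiap), and so 6 members (23.1%). It held 17 of the 342 listed exonic circRNAs (4.97%), these 6 included. Members come 2 to a gene by the rule, so the members are not independent counts, and no test was made of these shares.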

How the data were processed

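RNA of 6 neutrophil pools was treated with RNase R, labelled with Cy3 and hybridized to Arraystar mouse circRNA arrays. Per the file headers, the deposited intensity values were read by the authors with Feature Extraction 11.0.1.1 (Agilent). The log2 values deposited for the whole series were normalized by the authors. The submitters' processing notes name limma, but the normalization itself is not given in the sources used here. Groups came from sample titles. The study's methods describe 3 pools of 3 marrow samples a group, while its abstract names pooled marrow of 3 db and 3 non-db mice. Whether the pools of a group held different mice is therefore not certain, so their spread may be partly technical. Whether the pools shared litters is not stated, and 3 arrays a group limit the precision.

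Probes carry no circRNA names. Each listed fold was matched to 2 to the power of the absolute group difference within 0.001% in the listed direction, with the paired p of the lists to settle ties. All 26 members matched a single probe. Their folds therefore follow from the naming. The members, gene lists and tests were chosen with earlier results of these data known. All genes of the rule are named, with listed circRNAs of other types on them. Group-centred distances were computed in Python 3.11.15 and checked on simulated data. limma 3.58.1 (lmFit, eBayes, two-sided, no covariate) in R 4.3.3 was run on all probes kept, as background, and tested on simulated data. Alternatives were scanner values of pools 2 to 6 (scaled to the 75th percentile, quantile normalized, or normexp with offset 50 and quantile), group medians, filters, scan sessions, other centring, correlation as the measure, and each pool left out.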

Additional observations from a re-analysis of the deposited data

How the results depend on the processing

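The direction of every member was kept under all alternatives except within the first scan session, where mmu_circRNA_22928 of Actr2 was 0.0802 and mmu_circRNA_29992 of Bach1 0.7048 (pool 4 minus pool 1). The cause was not tested. The alternatives reuse pools that chose the members, so the kept directions are no independent support. Members past 1.5-fold numbered 13 after normexp and quantile normalization of pools 2 to 6 and 15 within the second session. With 1 pool left out they numbered between 14 (without pool 3) and 24. The members were chosen at this same threshold, so some loss past it is built in. These counts were not taken over all listed circRNAs, so they are not read as particular to the members. Cross-gene distances had a larger median than within-gene distances under every setting run on log2 differences. The members nearest to their own gene's circRNA, 14 in the values used, were 9 after quantile normalization of pools 2 to 6, 6 in the non-db pools only, and between 11 and 14 with 1 pool left out. The median rank of the same gene's circRNA was 320 in the non-db pools, 68.5 in the db pools, 59 by correlation, 41, 42 and 37.5 in the scaled, quantile and normexp values of pools 2 to 6, 7.5 when centred over all 6 pools, and between 21.5 and 111.5 (without pool 6) with 1 pool left out. These settings mostly use fewer pools, but the correlation and the centring over all 6 pools do not. That centring keeps the group difference by which the members were chosen, so its lower rank is no independent support. Over all probes, an unadjusted limma p under 0.05 was found for 326 with the scan session as a block and for between 117 (without pool 4) and 583 (without pool 6) with 1 pool left out. An adjusted p under 0.05 was found for between 0 and 2 (without pool 6). The listed p-values of all 453 circRNAs equal, within 0.1%, a paired t-test of pools 1 and 4, 2 and 5, and 3 and 6. The labels give no such pairing, and the group-centred values of these pairs correlated at 0.06, -0.197 and 0.126 over all probes kept, so these pools were not treated as pairs. With the pairing as a replicate block, chosen after seeing the data, limma gave 316 unadjusted and 0 adjusted p under 0.05. For the dim mmu_circRNA_45429 of Xiap, the log2 difference depended strongly on the processing. It was -2.12, -2.21 and -0.33 in the scaled, quantile and normexp values of pools 2 to 6. Single arrays, this dim probe and the missing spots of pool 1 limit these values.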
